A study of Homo sapiens with 12 samples.

Results

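The RAB small GTPases are described here as they were expressed in 3 human intrahepatic cholangiocarcinoma (ICC) cell lines after attenuation of LKB1. Members were taken by symbol alone, as every gene named RAB with 1 or 2 digits and at most 1 further letter and digit, which gave 60 of the 18758 genes kept. A gene was tested when its value was at least 1 in at least 2 libraries, and 58 of the 60 members passed, among 16114 genes tested in all. RAB19 was listed at 1.18 in 1 SSP-25 LKB1 siRNA library and near 0 in the other libraries, and RAB44 reached no more than 0.402, so both were left untested. A filter of this kind can be passed through a single line: RAB25, RAB33A, RAB34, RAB42 and RAB3C had no more than 3.83 in any HuH-28 or RBE library and were carried mainly by SSP-25.

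The cell lines were HuH-28, RBE and SSP-25, each derived from ICC, a cancer of the bile duct epithelium within the liver. Each line was transfected either with an siRNA against LKB1 (gene symbol STK11), a serine/threonine kinase and tumor suppressor that activates AMPK, or with a scrambled control siRNA. Both received 45 pmol of siRNA per well with Lipofectamine RNAiMAX and were collected at 48 h, so the control cells had also been exposed to the transfection reagent and to a small RNA. There were 2 libraries for each line and siRNA, 12 in all. Each line is a single model and the siRNA sequences were not given in the sources used here. HuH-28 was grown in MEM and the other lines in RPMI1640, so line and medium cannot be told apart where HuH-28 is compared with another line.

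RAB proteins are molecular switches that mark the membranes of a cell. In the GTP-bound state, set by a guanine nucleotide exchange factor (GEF), a RAB sits on its membrane by a prenyl tail and recruits effectors such as tethers and motors. A GTPase-activating protein (GAP) returns it to the GDP-bound state, in which GDP dissociation inhibitor extracts it from the membrane. In epithelial cells, including those lining bile ducts, RAB proteins sort cargo between the Golgi apparatus, endosomes, lysosomes and the apical and basolateral surfaces.

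Knockdown was visible in every library of the 3 lines. STK11 (chr19:1177558-1228435, GRCh38) was at 215 ± 11.4 in LKB1 siRNA and 649 ± 69.0 in control siRNA HuH-28 cells, at 143 ± 18.2 and 457 ± 39.0 in RBE cells, and at 67.3 ± 7.80 and 462 ± 2.92 in SSP-25 cells (normalized reads per kilobase, SD, n = 2 each). Library totals lay between 9895490 and 11710700 in this unit, the number of reads behind them is unknown, and replicate libraries correlated at r = 0.994 to 0.996 across genes. Of the bile duct markers, KRT7 was abundant in every line, whereas KRT19 (10.4 ± 0.83) and EPCAM (0.96 ± 0.51) were near 0 in control siRNA HuH-28 cells (SD, n = 2). Of 6 hepatocyte genes, ALB did not exceed a group mean of 1.13, whereas SERPINA1 was at 1547 ± 8.57 in LKB1 siRNA and 1179 ± 92.3 in control siRNA RBE cells and at 167 ± 37.3 and 160 ± 19.0 in HuH-28 cells (SD, n = 2 each). The summed level of 6 bile duct markers ranged over 3113 to 3281 in LKB1 siRNA and 2609 to 2691 in control siRNA HuH-28 libraries, over 25843 to 26006 and 27142 to 28530 in RBE cells, and over 10645 to 10859 and 7040 to 7363 in SSP-25 cells. That of the 6 hepatocyte genes ranged over 1578 to 1587 in LKB1 siRNA and 1142 to 1281 in control siRNA RBE libraries, and the part of either sum in the results was not tested. With 2 libraries against 2, no two-sided exact permutation test can go below p = 0.33, so the p-values come from limma fitted across all genes. The replicate number stands for a separate test in the study's wording, and whether separate cultures were used is not stated, so the p-values may measure only a technical spread between libraries. Same-numbered LKB1 and control siRNA libraries deviated together in HuH-28 cells but not clearly in the other lines, so whether the numbers pair the libraries is not settled, and a fit with the replicate number as a block is given where it changes a call.

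Short words in the 3′ untranslated regions are shown for a few members because earlier work on these data had found one 7-base word, GCAGTAC, more often among genes that were higher with LKB1 siRNA, and another, GAAGGAA, among genes that were lower. Both were searched on the sense strand of the longest GENCODE v29 3′ UTR of each gene, which was found for all 58 tested members. The word is in capitals, with 10 bases on each side. The first pair comes from RAB8A, the strongly lower member that held a GAAGGAA word, and the next pair and single site from RAB14 and RAB27A, which held GCAGTAC and were higher on average.
RAB8A site 1: aagcacaaatGAAGGAAatcctgtgta
RAB8A site 2: aaagcattgaGAAGGAAagaagcctgg
RAB14 site 1: tctgttggaaGCAGTACtttttactgc
RAB14 site 2: cagacaccggGCAGTACactttggaaa
RAB27A site: agacttcagtGCAGTACaacataattt
RAB39B site: gggaacatggGAAGGAAtcaaaggtaa
The RAB39B site is shown because this gene held GAAGGAA and was higher. RAB14, also higher, held 1 GAAGGAA word that is not shown, and RAB22A, which did not pass on average in the main fit, held both words. The RAB8A words lie at chr19:16132907-16132913 and chr19:16132933-16132939 on the plus strand (GRCh38), at bases 603 and 629 of a 1930-base 3′ UTR. On the minus strand of their chromosomes, the RAB14 words lie at chr9:121181337-121181343 and chr9:121178916-121178922, the RAB27A word at chr15:55203351-55203357 and the RAB39B word at chrX:155259600-155259606.

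GCAGTAC was present in the 3′ UTR of 5 RAB genes (8.62%), namely RAB2A, RAB14, RAB18, RAB22A and RAB27A, against 4.97% of the 15781 tested genes with a 3′ UTR. Of these 5 genes, 3 were higher and 0 lower on average with LKB1 siRNA. Among all 784 genes with the word, 414 were higher and 116 lower. Of the 53 RAB genes without the word, 18 were higher and 14 lower, beside 3934 and 3889 of all 14997 genes without it. GAAGGAA was present in 14 RAB genes (24.1%) against 20.8% of all genes. Of the 14, 5 were higher and 5 lower, beside 828 and 1079 of all 3288 genes with that word. RAB31, RAB38, RAB7A and RAB10, all lower on average, held neither word. Long 3′ UTRs hold any word more readily: among all genes the median length was 3224 bases with GCAGTAC and 1160 bases without it. The words were found on the same libraries, so these counts give no independent evidence, a match is a description of letters only, and the part of either word in the responses was not tested.

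Across the family, some members were higher and others lower with LKB1 siRNA, and each count is set beside the share of all genes that did the same. Differences are log2 fold changes of LKB1 siRNA over control siRNA, on the scale of log2(value + 0.5), and higher or lower means a limma adjusted p under 0.05 after Benjamini-Hochberg adjustment over 16114 genes. In HuH-28 cells 11 RAB genes were higher (14.3% of all genes were) and 10 lower (15.5% of all genes). In RBE cells the counts were 11 higher (22.1% of all genes) and 11 lower (18.6%), and in SSP-25 cells 18 higher (21.1%) and 13 lower (21.1%). On the average of the 3 lines, 21 RAB genes were higher (27.3%) and 14 lower (25.2%). In the main fit the members' share of higher values was above that of all genes in HuH-28, in SSP-25 and on average. It was below that of all genes in RBE. The members' share of lower values was close to that of all genes throughout. None of these gaps was tested. In such bulk libraries, fewer cells expressing a gene and less RNA per cell cannot be told apart. The counts of higher members depended on the fit. In RBE 17 members were higher with the replicate block or with RBE fitted alone. In HuH-28 4 members were higher with HuH-28 fitted alone. The shares of all genes under these fits are not given here, so the members cannot be set beside them. The median difference of the 58 members on average was 0.02, against 0.03 over all genes.

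Past a further limit of 1 on the log2 scale stood 3 RAB genes in HuH-28 cells (4.05% of all genes), 8 in RBE cells (7.88%), 7 in SSP-25 cells (8.37%) and 6 on average (4.2%). The 6 on average were RAB8A, RAB31 and RAB38, which were lower (1.09% of all genes were), and RAB36, RAB39A and RAB39B, which were higher (3.12%). The average came inside the limit of 1 for RAB38 without the HuH-28 control siRNA replicate 2 (-0.99) and, at a pseudocount of 10, for RAB38 (-0.77) and RAB36 (0.75), with the calls kept. In all 3 lines, 7 members were higher (6.94% of all genes were), namely RAB12, RAB15, RAB20, RAB27A, RAB28, RAB39A and RAB39B. Likewise 5 were lower in all 3 lines (7.45% of all genes), namely RAB7A, RAB8A, RAB10, RAB31 and RAB33B. The calls of RAB8A, RAB10, RAB27A and RAB31 held in all 3 lines whichever library was left out. With HuH-28 fitted alone, 5 of these 12 members kept their HuH-28 call, and RAB7A, RAB10, RAB15, RAB20, RAB28, RAB33B and RAB39A lost it (adjusted p = 0.066 for RAB7A, 0.11 for RAB10 and 0.094 for RAB33B). No test was passed in any line or on average by 15 members, or by 9 with the replicate block. The share of all genes that passed no test is not given here, so neither count is read as a trait of the family. Among the 15 were RAB11A and RAB18, which serve recycling and lipid droplet traffic, and RAB1A and RAB13, which serve ER to Golgi transport and tight junctions. With the block RAB1A was lower in HuH-28 (-0.17, adjusted p = 0.043), in SSP-25 (-0.28, 0.0046) and on average (-0.14, 0.0060), and RAB13 was higher in RBE (0.30, 0.00078), in SSP-25 (0.11, 0.049) and on average (0.16, 0.00074).

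**Figure D1:**
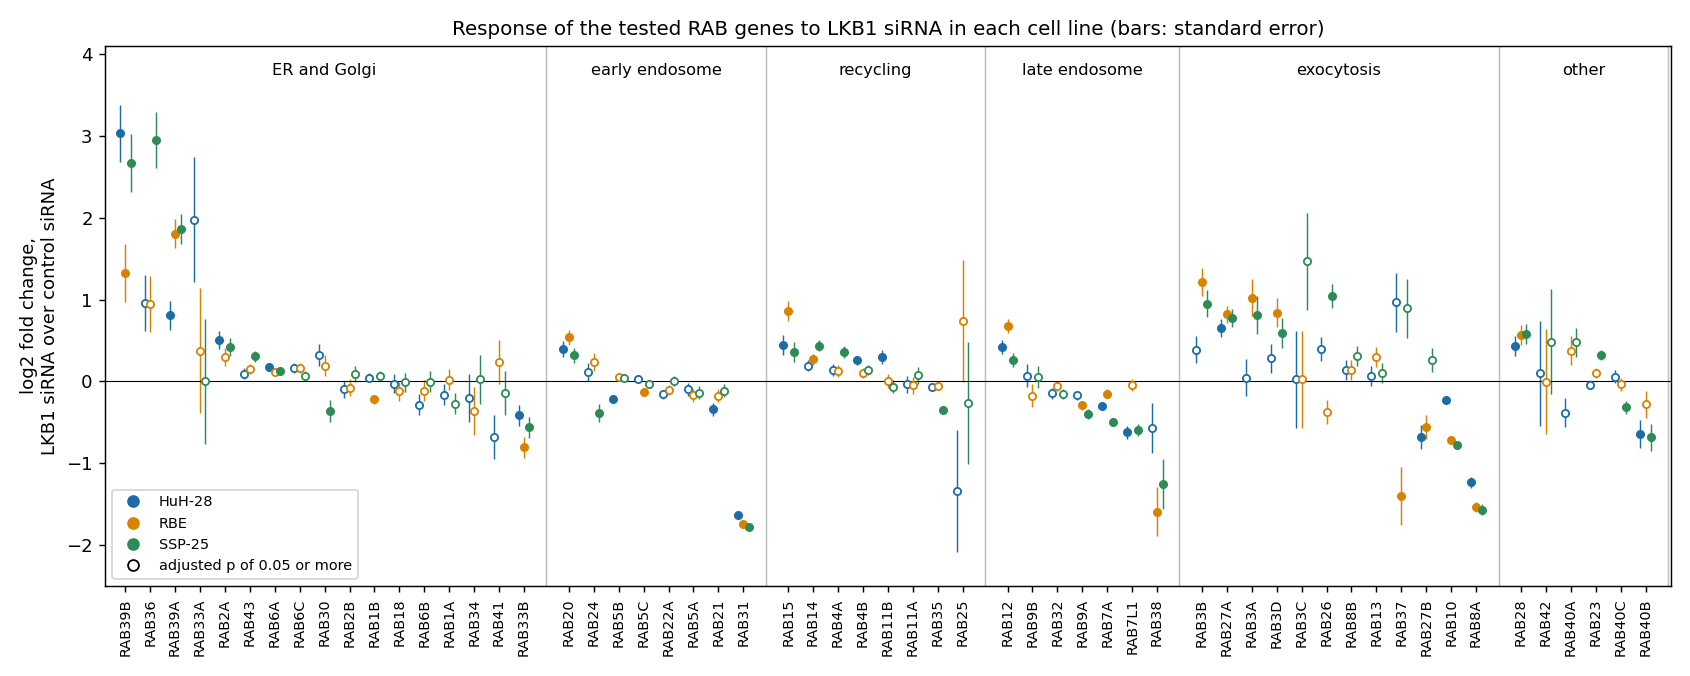
Log2 fold change of LKB1 siRNA over control siRNA for the 58 tested RAB genes, grouped by the membrane they serve and ordered by their average, with 1 point per cell line and bars for the standard error. Filled points have an adjusted p under 0.05; RAB31 and RAB8A lie below -1 and RAB39B lies above 1 in each of the 3 lines.

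The lowest average difference was that of RAB31, an early endosome and trans-Golgi RAB of the RAB5 subfamily. In HuH-28 it had 288 and 279 normalized reads per kilobase in LKB1 siRNA libraries, against 901 and 858 in control siRNA libraries. In RBE it had 306 and 301 against 1009 and 1023, and in SSP-25 cells 173 and 169 against 596 and 582. The groups did not overlap in any line, and each LKB1 siRNA mean was about the same fraction of its control, namely 0.322 in HuH-28 cells, 0.298 in RBE cells and 0.290 in SSP-25 cells. The log2 fold changes were -1.63 in HuH-28 cells, -1.74 in RBE cells and -1.78 in SSP-25 cells, and the average was -1.72 ± 0.03 (SE, limma adjusted p = 2.3e-10). No difference of the effect between lines was detected (F test adjusted p = 0.23). RAB22A, its closest paralog, had 323 and 313 against 371 and 339 in HuH-28 cells, 206 and 206 against 223 and 219 in RBE cells, and 275 and 281 against 270 and 283 in SSP-25 cells. In the main fit RAB22A passed the test in no line (average -0.09, limma adjusted p = 0.061). With the replicate block it passed as lower in HuH-28 cells (-0.16, 0.037) and on average (0.032). With median scaling it passed as lower in RBE cells (-0.15, 0.048) and on average (0.015), and with quantile scaling on average (0.037).

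RAB8A, which directs vesicles from the Golgi apparatus and recycling endosomes to the apical surface and the primary cilium, was also lower in every line. It had 596 and 538 normalized reads per kilobase in LKB1 siRNA HuH-28 cells, against 1394 and 1272 in control siRNA cells. In RBE it had 346 and 345 against 991 and 1013, and in SSP-25 cells 428 and 405 against 1276 and 1197. There was no overlap in any line. The log2 fold changes were -1.23 in HuH-28 cells, -1.53 in RBE cells and -1.57 in SSP-25, with an average of -1.45 ± 0.04 (SE, adjusted p = 3.3e-09). The F test of a difference between lines gave adjusted p = 0.038, a call that was lost when any library but the HuH-28 LKB1 siRNA replicate 2 or the HuH-28 control siRNA replicate 1 was left out.

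RAB8B, the paralog of RAB8A with a related role in exocytosis, was not lower. It had 348 and 449 against 336 and 382 in HuH-28 cells, 280 and 240 against 232 and 239 in RBE cells, and 1146 and 1191 against 875 and 1011 in SSP-25 cells. In the main fit no line passed the test, and the average was 0.20 ± 0.07 (SE, limma adjusted p = 0.040). That call was lost without any 1 of 8 libraries, without RBE or SSP-25, with median scaling (0.075) and with no trend (0.077). In SSP-25 cells RAB8B passed as higher with the block (0.31, adjusted p = 0.015), with quantile scaling (0.38, 0.041) and with SSP-25 fitted alone (0.0047). RAB10, a close relative that acts in basolateral and GLUT4 vesicle delivery, was lower in all 3 lines with unequal size. Its libraries had 1301 and 1259 against 1461 and 1523 in HuH-28 cells, 1351 and 1334 against 2179 and 2242 in RBE cells, and 2009 and 1970 against 3362 and 3469 in SSP-25 cells. The log2 fold change was -0.22 in HuH-28 cells, -0.72 in RBE cells and -0.78 in SSP-25 cells, and the F test of a difference between lines gave adjusted p = 5.7e-04, the smallest among the RAB genes.

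**Figure D2:**
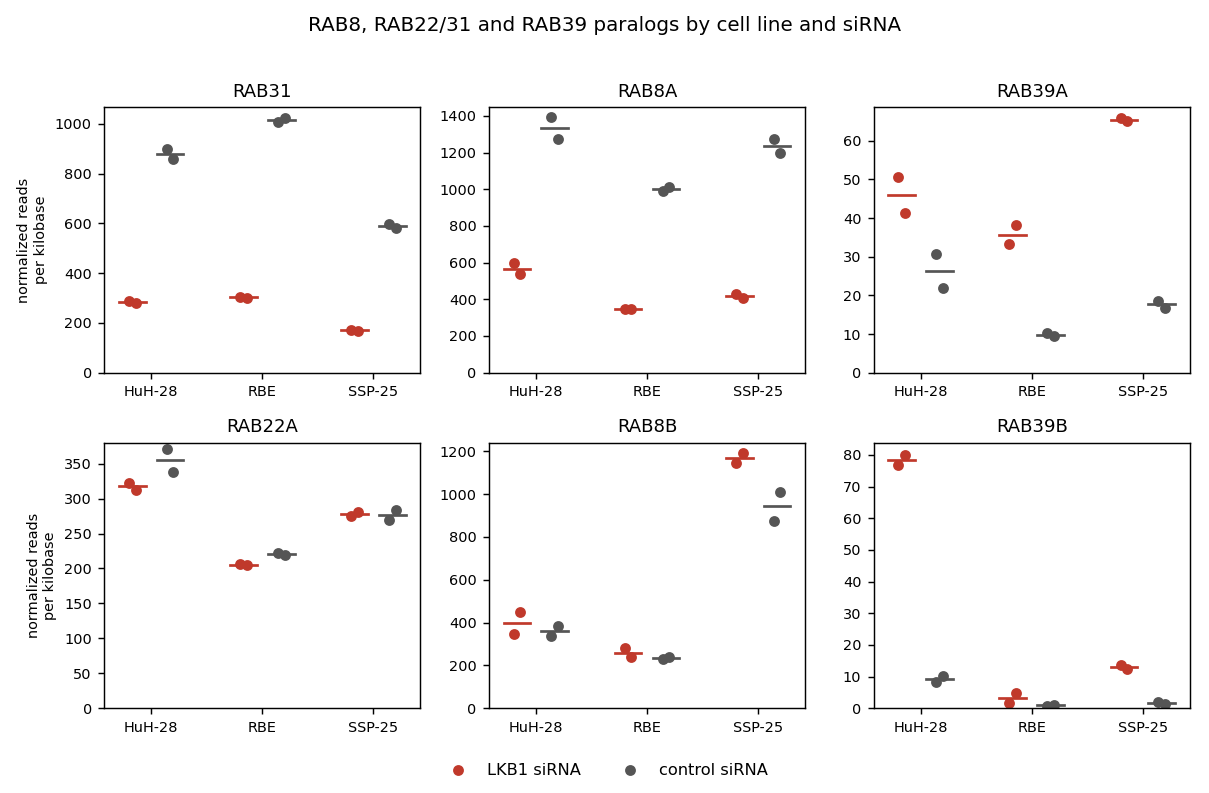
Normalized reads per kilobase in each library (points) and group means (lines) for 3 pairs of RAB paralogs, with LKB1 siRNA left of control siRNA in each line. RAB31 and RAB8A lie far below control in all 3 lines. RAB22A and RAB8B passed the test in no line in the main fit, and each passed in some line under other settings. Both RAB39 genes lie above control, with RAB39B at 76.7 and 79.8 in LKB1 siRNA HuH-28 cells.

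Of the 7 late endosomal and lysosomal RAB genes tested, 1 was higher and 5 were lower on average, against 27.3% and 25.2% of all genes, with a group median of -0.29 against 0.03 over all genes. Each member was put in a single group, so the group counts depend on that choice. RAB36 and RAB39A, higher on average and linked to lysosomes or phagosomes, were counted with the ER and Golgi apparatus. RAB7L1, linked to both the Golgi apparatus and the lysosome, was counted here. RAB7A, which drives maturation of late endosomes and their fusion with lysosomes, was among the most abundant members. It had 2537 and 2707 in LKB1 siRNA against 3176 and 3295 in control siRNA HuH-28 cells, 2667 and 2696 against 3029 and 2913 in RBE cells, and 3257 and 3299 against 4683 and 4567 in SSP-25 cells. The log2 fold changes were -0.30 in HuH-28 cells, -0.15 in RBE cells and -0.50 in SSP-25, with no overlap. The RBE call (adjusted p = 0.041) was lost when any of the 4 RBE or 4 SSP-25 libraries was left out (adjusted p up to 0.21). RAB9A, which returns receptors from late endosomes to the Golgi apparatus, averaged -0.29 ± 0.03 (SE) and was lower in RBE and SSP-25, and its relative RAB9B did not pass in any line.

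RAB7L1 (also named RAB29), a partner of the kinase LRRK2 at the Golgi apparatus and lysosome, was lower in HuH-28 with 216 and 189 against 320 and 304, and in SSP-25 with 333 and 308 against 464 and 505. In RBE it had 347 and 340 against 351 and 357, where the log2 difference of -0.04 did not pass. The corresponding differences were -0.62 in HuH-28 and -0.60 in SSP-25 cells, and the F test gave adjusted p = 0.0053. The level of RAB7L1 in control cells differed by less than 1 on the log2 scale.

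RAB38, which with RAB32 serves lysosome-related organelles such as melanosomes, had 42.1 and 41.8 against 131.6 and 123.2 in RBE cells (log2 fold change -1.59). In SSP-25 it had 8.39 and 10.8 against 19.6 and 27.7 (-1.25), and in HuH-28 cells 1.56 and 2.29 against 2.10 and 4.36, where the groups overlapped and the difference did not pass. The SSP-25 call was lost without the SSP-25 LKB1 siRNA replicate 1 (adjusted p = 0.058) or control siRNA replicate 2 (0.066). RAB32 itself averaged -0.12 ± 0.04 (SE, limma adjusted p = 0.020). That call was lost without replicate 1 of the RBE or SSP-25 LKB1 or control siRNA libraries. In the main fit RAB32 passed in no single line. In SSP-25 it was lower with the replicate block (-0.15, adjusted p = 0.048) and with SSP-25 fitted alone (0.018). In HuH-28 it was lower with quantile scaling (-0.30, 0.0022).

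The higher member of this group was RAB12, which acts in transport of the transferrin receptor to lysosomes and in autophagy. It had 842 and 926 against 631 and 689 in HuH-28 cells, 516 and 476 against 322 and 300 in RBE cells, and 486 and 490 against 377 and 440 in SSP-25 cells. The log2 fold changes of RAB12 were 0.42 in HuH-28 cells, 0.67 in RBE cells and 0.26 in SSP-25 cells, and the SSP-25 call was lost without LKB1 siRNA replicate 1 (adjusted p = 0.10) or 2 (0.12) or control siRNA replicate 1 (0.25).

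**Figure D3:**
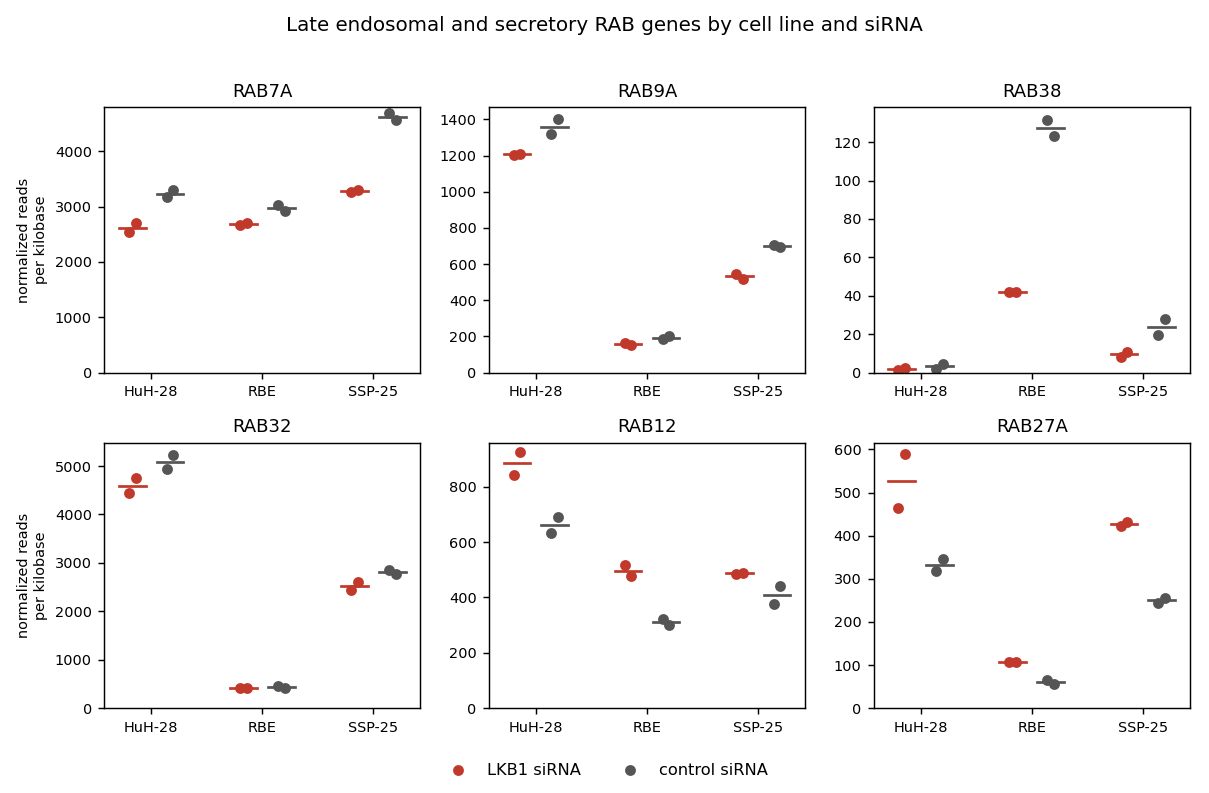
Normalized reads per kilobase in each library (points) and group means (lines) for 5 late endosomal or lysosome-related RAB genes and the secretory RAB27A, with LKB1 siRNA left of control siRNA. RAB7A lies below control and RAB12 and RAB27A lie above control in all 3 lines, and RAB32 and RAB9A are lowest in RBE cells.

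Among the 17 tested RAB genes of the endoplasmic reticulum and Golgi apparatus, 7 were higher and 1 lower on average, against 27.3% and 25.2% of all genes, with a group median of 0.05. The largest average differences were those of RAB39B, RAB36 and RAB39A, and the counts depend on placing RAB36 and RAB39A in this group. RAB39B, a RAB of neuronal and general Golgi traffic whose gene is linked to X-linked intellectual disability, had 76.7 and 79.8 against 8.18 and 10.2 in HuH-28 cells. In SSP-25 it had 13.6 and 12.5 against 1.83 and 1.45, and in RBE cells 1.71 and 4.78 against 0.824 and 0.913. The groups were separate in each line, although RBE values were close to the floor of the table. The log2 fold changes were 3.03 in HuH-28 cells, 1.32 in RBE cells and 2.67 in SSP-25, with an average of 2.34 ± 0.20 (SE, adjusted p = 6.5e-06). On the linear scale the mean was 8.52-fold that of control in HuH-28 and 7.97-fold in SSP-25 cells. The RBE call for RAB39B (adjusted p = 0.013) was lost without the RBE LKB1 siRNA replicate 2 (0.083) or the RBE control siRNA replicate 1 (0.062), with a pseudocount of 10 (log2 0.28, 0.055) and with RBE fitted alone (0.078). Leaving out 1 RBE library, the RBE log2 fold change of RAB39B ranged from 0.69 to 1.95. With controls so near 0 the size in SSP-25 also depended on the pseudocount, with 0.99 in SSP-25 and 1.16 on average at 10, and both calls were kept.

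RAB39A, which in macrophages acts on phagosomes and autophagy, had 50.7 and 41.3 against 30.6 and 21.97 in HuH-28 cells. It had 33.3 and 38.1 against 10.2 and 9.46 in RBE cells and 65.8 and 65.2 against 18.6 and 16.7 in SSP-25 cells. No overlap was seen. Its log2 fold changes were 0.81 in HuH-28 cells, 1.81 in RBE cells and 1.86 in SSP-25 cells, which differed by the F test (adjusted p = 0.019). The HuH-28 call was lost without the HuH-28 LKB1 siRNA replicate 1 (adjusted p = 0.052) or control siRNA replicate 2 (0.051). The call of a difference between lines was lost without the HuH-28 LKB1 siRNA replicate 2 (0.061) or control siRNA replicate 1 (0.057).

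RAB36, a less studied relative of RAB34 linked to lysosome positioning, had 52.6 and 50.3 against 27.9 and 24.8 in HuH-28 and 152.8 and 164.2 against 83.9 and 80.1 in RBE cells. In SSP-25 it had 5.11 and 6.50 against 0.006 and 0.790. Of the single lines, SSP-25 passed (log2 fold change 2.96, adjusted p = 9.3e-05), and because the control values there were near 0 its size depended on the pseudocount, with 4.25 at 0.1 and 0.60 at 10. The differences of 0.95 in HuH-28 cells (adjusted p = 0.063) and 0.95 in RBE cells (0.051) did not pass, although the groups did not overlap. Both passed with the replicate block (0.023 in HuH-28 and 0.019 in RBE), at a pseudocount of 10 (0.00013 and 2.4e-05), without either SSP-25 control siRNA library (no more than 0.0022 and 0.0013) and with each line fitted alone (0.012 and 6.6e-05), and the RBE difference also passed among genes with a mean value of at least 5 (0.042). Without the SSP-25 LKB1 siRNA replicate 2, the difference of RAB36 between lines no longer passed the F test (0.073).

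RAB33B, a Golgi RAB that binds the autophagy protein ATG16L1, was the 1 lower member of this group. It had 37.5 and 42.6 against 55.2 and 51.6 in HuH-28 cells, 24.4 and 25.7 against 40.04 and 48.7 in RBE cells, and 51.6 and 48.4 against 74.2 and 73.7 in SSP-25, with an average of -0.59 ± 0.07 (SE). The HuH-28 call of RAB33B was lost without LKB1 siRNA replicate 1 (adjusted p = 0.15), control siRNA replicate 1 (0.13) or control siRNA replicate 2 (0.064). RAB2A, which tethers vesicles between the ER and the Golgi apparatus, averaged 0.41 ± 0.06 and passed in HuH-28, though not without control siRNA replicate 1 (adjusted p = 0.054), and in SSP-25, though not without LKB1 siRNA replicate 1 (0.062) or 2 (0.058) or control siRNA replicate 1 (0.097), whereas RAB2B averaged -0.03 and did not pass. RAB6A, a Golgi RAB of retrograde traffic, averaged 0.14 ± 0.02. With the replicate block both RAB2A (0.30, adjusted p = 0.0034) and RAB6A (0.11, 0.033) also passed in RBE cells. RAB6C, an intronless near-copy of RAB6A, stood at 0.317 to 0.352 of the RAB6A value in all 12 libraries, and reads may be shared between the pair, so its own value is uncertain.

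Of the 12 secretory RAB genes tested, 6 were higher and 3 lower on average, against 27.3% and 25.2% of all genes. RAB27A, which docks lysosome-related and exosome-bearing compartments at the plasma membrane, had 464 and 588 against 318 and 346 in HuH-28 cells. It had 108 and 107 against 64.9 and 56.8 in RBE cells and 422 and 432 against 243 and 257 in SSP-25 cells. Its log2 fold changes were 0.65 in HuH-28 cells, 0.82 in RBE cells and 0.77 in SSP-25, with no overlap. RAB27B, the paralog that shares exosome secretion, was lower in HuH-28 cells (69.9 and 61.7 against 109.6 and 100.9, log2 -0.67) and in RBE cells (154.0 and 150.4 against 213 and 237, log2 -0.56). In SSP-25 it had 75.8 and 78.0 against 53.8 and 76.5, a difference of 0.26 that did not pass. The RBE call was lost without LKB1 siRNA replicate 2 (adjusted p = 0.060) or control siRNA replicate 2 (0.080). The F test for RAB27B gave adjusted p = 0.015, and 0.058 without the SSP-25 LKB1 siRNA replicate 2.

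The RAB3 genes control regulated exocytosis of secretory granules and synaptic vesicles. RAB3B was higher in RBE, with 116 and 129 against 53.1 and 51.7 (log2 1.22), and in SSP-25, with 224.1 and 219.7 against 108 and 121 (log2 0.95). In HuH-28 it had 292 and 213 against 225 and 161, so the groups overlapped, while LKB1 siRNA was higher within each replicate number. The HuH-28 difference of 0.39 did not pass, and it passed with the replicate block (adjusted p = 0.0087) and without LKB1 siRNA replicate 2 (0.028) or control siRNA replicate 1 (0.025). RAB3A had 54.75 and 58.1 against 30.0 and 25.2 in RBE cells (log2 1.02), 12.99 and 14.1 against 9.15 and 6.16 in SSP-25 cells (0.81), and 30.4 and 31.7 against 24.3 and 37.1 in HuH-28 cells, where it did not pass. The SSP-25 call of RAB3A was lost without LKB1 siRNA replicate 1 (adjusted p = 0.053) or 2 (0.087) or control siRNA replicate 2 (0.13). RAB3D was likewise higher in RBE cells (0.84) and SSP-25 (0.59) and not past the test in HuH-28 cells (0.28), and its SSP-25 call was lost without LKB1 siRNA replicate 2 (adjusted p = 0.14) or either control siRNA library (0.052 and 0.12). For none of RAB3A, RAB3B and RAB3D did the F test of a difference between lines pass, and with the replicate block it passed for RAB3B (adjusted p = 0.0049). RAB3C reached a mean of 1 only in SSP-25 and did not pass in any line, and with the block it passed as higher in SSP-25 (1.47, 0.015).

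RAB26 and RAB37, related secretory granule RAB genes, changed unequally between lines. RAB26 had 10.5 and 9.80 against 4.99 and 4.32 in SSP-25 cells (log2 1.05, adjusted p = 3.4e-04), 46.6 and 38.9 against 34.3 and 30.4 in HuH-28 cells, and 155.1 and 129.8 against 190.2 and 177.9 in RBE cells. The differences of 0.39 for HuH-28 and -0.37 for RBE did not pass, and the F test gave adjusted p = 0.0033. Both passed with the replicate block (0.039 each) and at a pseudocount of 10 (0.046 in HuH-28 and 0.022 in RBE), and the RBE difference also with quantile (0.035) or median scaling (0.040) and with RBE fitted alone (0.013). The SSP-25 difference of RAB26 was 0.46 at a pseudocount of 10 and still passed. RAB37 had 15.4 and 11.7 against 36.9 and 35.7 in RBE cells, a log2 fold change of -1.40 (adjusted p = 0.010). In HuH-28 it had 2.49 and 3.29 against 0.852 and 1.70, and in SSP-25 cells all values were below 1, and neither difference passed. The F test for RAB37 gave adjusted p = 0.010. The RBE call was lost without the RBE LKB1 siRNA replicate 2 (0.075) or control siRNA replicate 1 (0.054) and at a pseudocount of 0.1 (0.065).

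**Figure D4:**
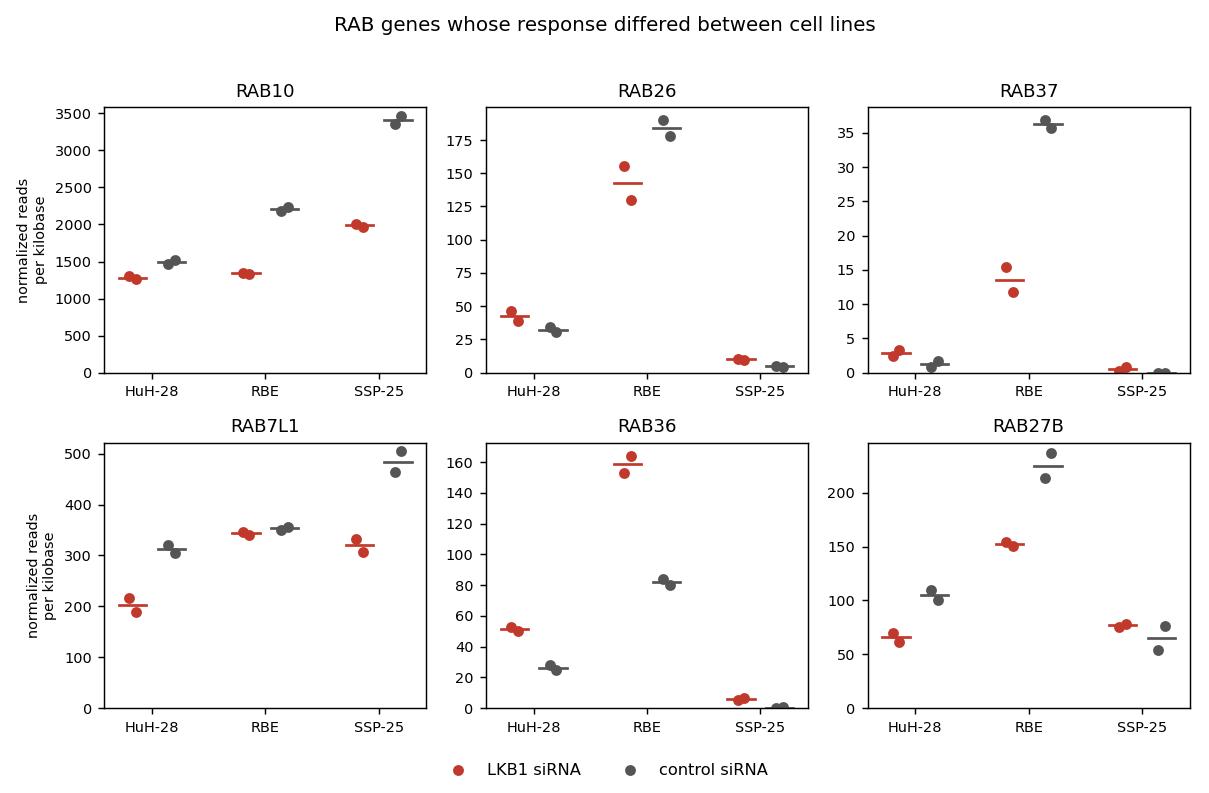
Normalized reads per kilobase in each library (points) and group means (lines) for 6 RAB genes whose response to LKB1 siRNA differed between lines by the F test, with LKB1 siRNA left of control siRNA. RAB10 falls least in HuH-28 cells, RAB37 and RAB26 lie below control in RBE cells alone, and RAB7L1 lies near control in RBE cells alone.

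In all, 16 RAB genes passed the F test of a response that differed between lines, which 28.3% of all genes did. The count fell to 8 without the SSP-25 LKB1 siRNA replicate 2, to 9 without the SSP-25 control siRNA replicate 1 and to 10 without the SSP-25 LKB1 siRNA replicate 1, and it was 25 with the replicate block, with which RAB12, RAB38 and RAB39B were among those added. The share of all genes that passed the F test with the block is not given here. The smallest F test p-values belonged to RAB10, RAB26, RAB7L1 and RAB37.

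Of the 8 early endosomal RAB genes tested, 1 was higher and 3 were lower on average, against 27.3% and 25.2% of all genes. Those other than RAB31 gave smaller differences. RAB21 averaged -0.21 ± 0.05 (SE, limma adjusted p = 0.0040) and was lower in HuH-28 (-0.34, 0.011). It did not pass in RBE or SSP-25, and its calls were not followed with single libraries left out. RAB5C, among the most abundant members, differed by -0.13 in RBE and did not pass elsewhere, and RAB5A averaged -0.13 ± 0.05 (SE, adjusted p = 0.036). The RAB5C call was lost without any 1 of the RBE or SSP-25 libraries (up to 0.20) and the RAB5A call without any 1 of 7 libraries (up to 0.099). With the replicate block RAB5A was also lower in RBE (-0.17, 0.029). The RAB5 proteins drive fusion of early endosomes. RAB20, a hypoxia-linked RAB of phagosomes and endosomes, was the higher member, with 253 and 300 against 196 and 224 in HuH-28 cells, 345 and 341 against 241 and 232 in RBE cells, and 101 and 97.4 against 77.0 and 82.0 in SSP-25 cells. Its average was 0.42 ± 0.05 (SE). The HuH-28 call of RAB20 was lost without LKB1 siRNA replicate 2 (adjusted p = 0.058) or control siRNA replicate 1 (0.067), and the SSP-25 call without LKB1 siRNA replicate 1 (0.096) or 2 (0.057) or control siRNA replicate 1 (0.11).

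Of the 8 recycling RAB genes tested, 4 were higher and 1 lower on average, against 27.3% and 25.2% of all genes. RAB15, which slows receptor recycling, had 44.3 and 48.9 against 31.04 and 37.4 in HuH-28 cells, 159.9 and 181.9 against 95.8 and 92.1 in RBE cells, and 76.6 and 68.4 against 54.1 and 58.8 in SSP-25 cells. The log2 fold changes of RAB15 were 0.45 in HuH-28 cells, 0.86 in RBE cells and 0.36 in SSP-25 cells. The HuH-28 call was lost without LKB1 siRNA replicate 2 (adjusted p = 0.095) or control siRNA replicate 1 (0.12), and the SSP-25 call without any 1 SSP-25 library or either RBE control siRNA library (up to 0.20). RAB14, which links endosomes and the Golgi apparatus, gave 0.19 in HuH-28 cells (adjusted p = 0.064), 0.27 in RBE cells, where the call was lost without LKB1 or control siRNA replicate 1 (0.094 and 0.081), and 0.44 in SSP-25 cells. RAB4A and RAB4B, which carry cargo back quickly to the surface, averaged 0.21 ± 0.04 for RAB4A and 0.17 ± 0.03 for RAB4B, and with the replicate block RAB4A also passed in HuH-28 (0.14, adjusted p = 0.048). RAB11A, the central RAB of the slow recycling endosome, averaged 0.00 ± 0.06 and was at 833 to 1168 in every library. RAB35 passed in SSP-25 cells among the single lines, with -0.35.

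Among members of cilia or little studied function, RAB28 was higher in all 3 lines, with 314 and 391 against 232 and 288 in HuH-28 cells, 340 and 304 against 213 and 218 in RBE cells, and 353 and 317 against 231 and 217 in SSP-25 cells. RAB28 acts on photoreceptor and ciliary membranes, and its average was 0.53 ± 0.07 (SE). The HuH-28 call was lost without LKB1 siRNA replicate 2 (adjusted p = 0.14) or control siRNA replicate 1 (0.15). RAB40B, a RAB that couples to ubiquitin ligase complexes, averaged -0.53 ± 0.10, and RAB23, a ciliary regulator of Hedgehog signaling, passed in SSP-25 cells among the single lines (0.33).

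The family as a whole made up a small share of the signal. Summed over the members, RAB genes took 0.327% and 0.328% in LKB1 siRNA HuH-28 libraries against 0.353% and 0.347% in control siRNA libraries. The shares were 0.307% and 0.299% against 0.326% and 0.331% in RBE cells, and 0.347% and 0.349% against 0.359% and 0.365% in SSP-25 cells. The LKB1 siRNA libraries were lower in each line without overlap.

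Levels per kilobase in the control siRNA libraries differed between lines. RAB32 was the most abundant member in HuH-28 cells (mean 5085, 13.3% of the RAB sum), RAB5C in RBE cells (3768, 11.5%) and RAB7A in SSP-25 cells (4625, 11.2%). The 8 most abundant members held 57.4% of the sum in HuH-28 cells, 56.0% in RBE cells and 59.3% in SSP-25 cells. RAB1B, RAB5C, RAB7A, RAB10, RAB13 and RAB1A were each among the 8 in all 3 lines, and RAB32 in HuH-28 and SSP-25.

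Past an adjusted p of 0.05 and a log2 difference of 1 stood 19 RAB genes between HuH-28 and RBE (41.9% of all genes), 20 between HuH-28 and SSP-25 (38% of all genes), and 21 between RBE and SSP-25 (37.4%). These comparisons share control libraries. At least 1 pair separated 30 members (59.4% of all genes), all 3 pairs separated 5 (12.2% of all genes), namely RAB6B, RAB26, RAB36, RAB37 and RAB38, and 28 members differed past these limits in none. RAB37 lost the separation of HuH-28 from SSP-25 at a pseudocount of 10 (log2 0.17, adjusted p = 0.087) and RAB36 that of HuH-28 from RBE at 0.1 (0.067). The range of the 3 control means had a median of 1.10 on the log2 scale for RAB genes and 1.29 for all genes.

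RAB34, which acts in ciliogenesis and on lysosome positioning, was the widest apart. It had 1.07 and 0.802 in HuH-28 cells, 1.99 and 1.10 in RBE cells, and 1124 and 1074 in SSP-25 control siRNA libraries, a log2 difference of -9.59 between HuH-28 and SSP-25. Its difference with LKB1 siRNA in SSP-25 cells was 0.02 on the log2 scale and did not pass. RAB25, the epithelial relative of RAB11A, and RAB42 and RAB33A were likewise low or close to 0 outside SSP-25, with 40.7 and 44.5 for RAB25, 24.96 and 23.8 for RAB42, and 11.4 and 8.96 for RAB33A in SSP-25 cells. The other lines had up to 2.89 for RAB25, 0.773 for RAB42 and 0.929 for RAB33A. With the replicate block the HuH-28 difference of RAB33A with LKB1 siRNA passed (1.97, adjusted p = 0.036).

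RAB26 (190.2 and 177.9), RAB36 (83.9 and 80.1), RAB37 (36.9 and 35.7) and RAB38 (131.6 and 123.2) were highest in RBE cells. RAB36 had 27.9 and 24.8 in HuH-28 and no more than 0.790 in SSP-25 cells. RAB32, the paralog of RAB38, ran the other way. It had 4934 and 5235 in HuH-28 cells, 462 and 417 in RBE cells, and 2848 and 2761 in SSP-25 cells, a log2 difference of 3.53 between HuH-28 and RBE. RAB9A was also lowest in RBE, with 1316 and 1403 in HuH-28 cells, 185 and 201 in RBE cells and 706 and 696 in SSP-25 cells.

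**Figure D5:**
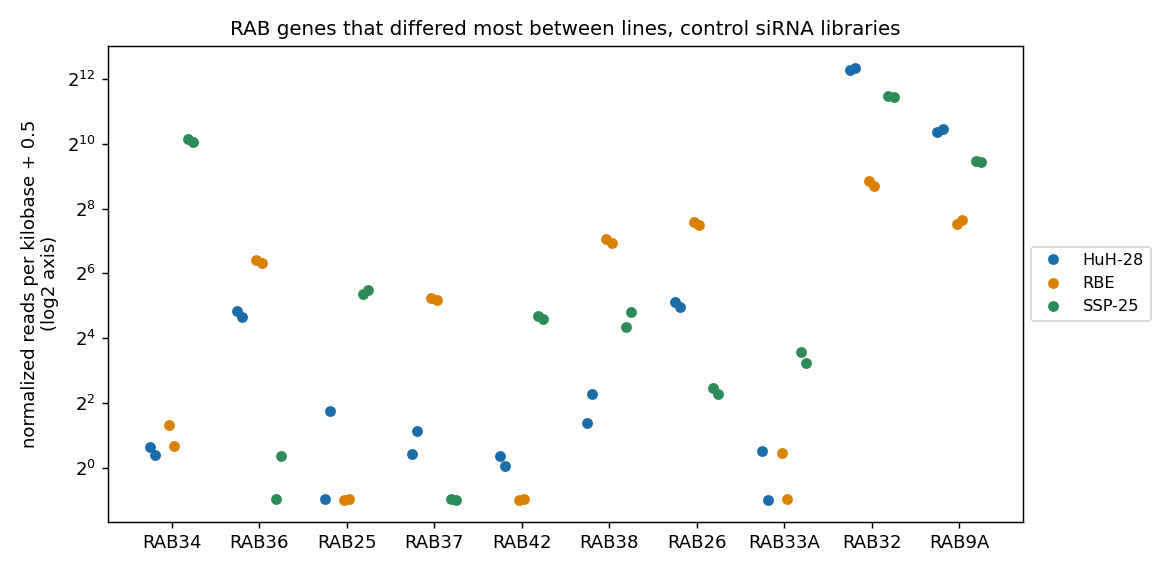
Normalized reads per kilobase + 0.5 (log2 axis) in the control siRNA libraries of each line, for the 8 RAB genes with the largest range of the 3 control means and for RAB32 and RAB9A. RAB34, RAB25, RAB42 and RAB33A are highest in SSP-25 cells, RAB36, RAB37, RAB38 and RAB26 in RBE cells, and RAB32 and RAB9A in HuH-28 cells.

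Genes that load, extract, activate and read the RAB switch were looked up from lists of known RAB cofactors. Of 8 chaperone and prenylation genes tested, 5 were higher and 2 lower on average, against 27.3% and 25.2% of all genes. GDI2, a GDP dissociation inhibitor, averaged 0.46 ± 0.03 (SE) and was higher in all 3 lines. It was at 3263 ± 174 in LKB1 siRNA and 2383 ± 156 in control siRNA HuH-28 cells (SD, n = 2). RABAC1 (prenylated RAB acceptor) averaged 0.49, with 0.08 in SSP-25, where it did not pass (adjusted p = 0.34). CHML (RAB escort protein) averaged 0.36, with 0.04 in RBE, where it did not pass (0.77).

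Of 41 GEFs tested, 7 were higher and 21 lower on average, against 27.3% and 25.2% of all genes, with a median of -0.20 against 0.03 over all genes. FAM116A (DENND6A), a RAB14 GEF, averaged -0.92 ± 0.05 and GAPVD1, which acts on RAB5, -0.89 ± 0.05, each lower in all 3 lines. MADD, a GEF for RAB3 and RAB27 proteins, averaged 0.53 ± 0.03, and ST5 0.84 ± 0.04. For GAPs, 9 were higher and 17 lower of 32 tested, beside the same 27.3% and 25.2% of all genes, with a median of -0.16. TBC1D4 (AS160), the insulin-regulated GAP for RAB8A, RAB10 and RAB14, was higher in all 3 lines, with 113 ± 15.2 against 76.5 ± 6.66 in HuH-28 cells, 397 ± 1.61 against 224 ± 3.35 in RBE cells and 341 ± 2.00 against 131 ± 14.0 in SSP-25 cells (SD, n = 2 each). EVI5, a GAP linked to RAB11, averaged -0.78 ± 0.04, TBC1D15 -0.50 and TBC1D8 0.38.

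Effectors gave 18 higher and 15 lower of 53 tested, beside 27.3% and 25.2% of all genes, with a median of 0.01. RAB11FIP2, which ties RAB11 to myosin motors, averaged -1.23 ± 0.05 (SE) and was lower in all 3 lines. It was at 83.7 ± 3.44 against 167 ± 12.9 in HuH-28 cells, 73.1 ± 1.12 against 216 ± 1.28 in RBE cells and 70.7 ± 3.16 against 155 ± 7.02 in SSP-25 cells (SD, n = 2 each). OPTN (optineurin), an effector of RAB8 proteins, averaged -0.81 ± 0.03, and was at 906 ± 6.04 against 1154 ± 33.5 in HuH-28 cells, 398 ± 15.2 against 676 ± 8.23 in RBE cells and 662 ± 9.83 against 1663 ± 32.0 in SSP-25 cells. The RAB5 tether EEA1 averaged -0.52 ± 0.05 and the RAB6 and RAB9 effector GCC2 -0.51 ± 0.04, with -0.14 in RBE, where GCC2 did not pass (adjusted p = 0.11).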

How the data were processed

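The table of the whole series holds signal values, which the authors deposited as normalized reads per kilobase of gene. Libraries were made with the TruSeq V2 kit. The study's methods name NextGENe with RefSeq mRNA, whereas hg19, TopHat 1.2.0 and edgeR are listed by the submitters' processing notes, and which made the table is not settled. The number of reads is unknown, so no interval from counts is given. Of 18815 rows, 28 date-corrupted rows, 23 repeated rows and 6 rows of symbols with different values were left out. Groups came from the sample titles. log2(value + 0.5) of 16114 genes (at least 1 in at least 2 libraries) was fitted with limma 3.58.1 in R 4.3.3, as 6 group means with a trended prior (6 residual degrees of freedom). The average is the mean of the 3 lines, and an F test compared their responses. P-values were Benjamini-Hochberg adjusted over all genes. Tested on simulated data, the fit recovered 97 to 98% of changes of 1.5 and 57 to 59% of changes of 0.5 on the log2 scale within lines. Each size was given to 100 of 16114 genes, all well above the floor, with independent noise. The noise of a gene had the same spread in all 3 lines. The rates therefore do not cover values near 0, such as RAB39B in RBE or RAB36 in SSP-25, or a response of many genes. Nor do they cover a spread that differs between lines.

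Genes described per library were those past an adjusted p of 0.05 and 1 on the log2 scale in a line or on average, those passing in one direction in all 3 lines, the 4 with the smallest F test p and the 8 with the largest range of control means. From each list of cofactors the 4 with the smallest average p were named, except 1 that is not reported here. RAB22A, RAB8B, RAB9A, RAB27B, RAB32 and the further members given by value were chosen after their values were seen. The members and lists were chosen with earlier results of these data known. Alternatives were pseudocounts, filters, scalings, no trend, a replicate block, single-line fits and leaving out each library. Gene coordinates and 3′ UTR sequences come from GENCODE v29 (GRCh38), which is not the build of the study.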

Additional observations from a re-analysis of the deposited data

Results flagged for a closer look

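The response to LKB1 siRNA differed between the 3 lines by the F test of limma for 16 RAB genes, against 28.3% of all genes, and the adjusted p-values were as follows. They were 0.000566 for RAB10, 0.00333 for RAB26, 0.0053 for RAB7L1 and 0.0102 for RAB37. Of these 4, RAB10 ranged over 0.000354 to 0.00403 across the alternatives and RAB26 over 0.00245 to 0.0167, so both kept the call in every alternative run. RAB7L1 and RAB37 kept it too, with a highest value of 0.025 and 0.0481. RAB35 had 0.0115, RAB5B 0.0145, RAB27B 0.0147 and RAB7A 0.0156, and among these RAB5B alone kept the call throughout, with a highest value of 0.0411. RAB36 had 0.0175, RAB39A 0.0193, RAB23 0.0222 and RAB24 0.0299, with highest values of 0.223, 0.0614, 0.0817 and 0.11. RAB1B had 0.0329, RAB8A 0.0385, RAB30 0.0398 and RAB40A 0.0465, with highest values of 0.13, 0.111, 0.15 and 0.133. Among these, RAB30 differed by -0.36 in SSP-25 (adjusted p = 0.049) and by 0.32 in HuH-28 (0.096) and 0.19 in RBE (0.28), and RAB24 differed by -0.39 in SSP-25 (0.019), 0.12 in HuH-28 (0.49) and 0.24 in RBE (0.12). The SSP-25 call of RAB30 was kept in 11 of 21 alternatives (adjusted p up to 0.29 without the SSP-25 control siRNA replicate 1). That of RAB24 was lost without the SSP-25 LKB1 siRNA replicate 1 (0.11) or control siRNA replicate 2 (0.12), and the RBE difference of RAB24 passed with the replicate block (0.0052) and with RBE fitted alone (0.0090).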

How the results depend on the processing

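Over 26 alternatives, 4533 of 4832 single-gene values kept their side of the threshold and 2 reversed. Of 229 single-gene results 87 changed under some alternative, and 53 of the 161 with an adjusted p under 0.05 lost it under at least 1. In every alternative run, RAB8A and RAB31 kept their call of lower values in each line. RAB37 on average was -0.24 at a pseudocount of 10, and RAB42 in HuH-28 (0.10) was -1.21 without the HuH-28 LKB1 siRNA replicate 1 and 1.40 without replicate 2. Whether the replicate numbers pair the samples is not settled: they stand for separate tests in the study's wording, and deviations of same-numbered LKB1 and control siRNA libraries correlated at 0.43 for HuH-28, 0.0023 for RBE and 0.032 for SSP-25. With the replicate number as a block, no call of a named gene was lost, 17 RAB genes were higher in RBE (11 without it) and 25 passed the F test (16 without it). With each line fitted alone, 17 were higher in RBE, and in HuH-28 10 passed (21 in the joint fit), 4 of them higher and 6 lower. Fewer libraries stood behind the spread in these fits. Across genes, the log2 difference between replicates had an SD of 0.29 in LKB1 and 0.27 in control siRNA HuH-28 cells. That SD was 0.22 to 0.24 in the groups of the other lines. The shares of all genes with the block or with single lines are not given here. Leaving out 1 library at a time, the F test count ranged from 8 to 17, lower genes in RBE from 7 to 11 and higher genes in SSP-25 from 11 to 20. The part of fewer libraries, of unequal spread or of any other cause in these changes was not tested. Quantile or median scaling moved the median of all genes by no more than 0.04 on the log2 scale. Without read counts, the depth behind values under 1 is unknown.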
